A study of Mus musculus with 6 samples.

Results

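The 35 genes described here encode the keratins, cell junctions and identity factors of epithelial cells. They were chosen by symbol, from common knowledge of epithelial markers, with earlier results of these data known. Every array probe annotated to them was taken. Probes were found for 34 of the 35 genes, 60 probes in all, out of 45281 probes and 19057 named genes on the array. Dsp, which encodes desmoplakin, had no probe in the annotation used, so its expression was not analysed here.

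RNA came from 4T1ch9 cells, a clone of 4T1, a mammary carcinoma line of Balb/c mice. Cells received a lentivirus with a short hairpin RNA (shRNA) against Stc1, which encodes the secreted glycoprotein stanniocalcin 1, or with a hairpin that targets no gene. Both STC1 groups, given 6 µl or 18 µl of virus, held 2 Illumina bead arrays each. The non-targeting (NT) group also held 2 arrays, 1 given 6 µl and 1 given 18 µl. All groups were transduced and then kept in puromycin for 5 to 6 days, there were no untransduced cells, and all arrays share this 1 clone, and the labels name no second STC1 hairpin. The comparison asked how expression in cells with the STC1 hairpin differed from that in cells with the NT hairpin.

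Epithelial cells form sheets by joining their neighbours. Cadherins at adherens junctions are tied to actin by catenins, claudins and other membrane proteins seal tight junctions through zonula occludens scaffolds, and desmosomes anchor keratin filaments. Simple epithelium such as the luminal layer of the mammary gland is known for keratins 7, 8, 18 and 19, and the basal layer for keratins 5 and 14. Matriptase, a membrane serine protease held in check by Kunitz-type inhibitors, acts at the surface of these cells, and ESRP splicing factors, OVOL1, GRHL2 and ELF3 take part in the epithelial expression programme.

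Many epithelial genes are known targets of the Snail and ZEB repressors, which bind an E-box of the letters CACCTG, read on the opposite strand as CAGGTG. The 250 bases upstream of the RefSeq start site (GRCm38.p6) were at hand for 22 of the 35 genes, in 27 windows because some genes have several starts. The E-box, searched on both strands, stood in 14 of the 27 windows (51.9%), from 13 genes, against 17.2% of all 32851 windows of the same length and 16.9% of the 21263 windows of protein-coding genes. The windows of the set also had more G and C, with a median of 60.4%, against 52.4% in all windows and 55.6% in those of protein-coding genes. Of the 13 genes with an E-box 7 were among those measured below and 6 were not, and of the 9 without one 5 were measured. Dsp, which had no probe, was among the genes without an E-box that were not measured. A match describes letters and shows no binding. The windows below are shown because they set the bright simple keratins, the neighbouring genes Krt8 (chr15:102004343-102004592, minus strand) and Krt18 (chr15:102027966-102028215, plus strand), beside Epcam (chr17:87635729-87635978, plus strand), which was above background on no array, and beside the inhibitor genes Spint1 (chr2:119237110-119237359, plus strand) and Spint2 (chr7:29281978-29282227, minus strand), whose STC1 and NT arrays are compared below. Each is written 5′ to 3′ on the gene's strand, and capitals mark the E-box.
Krt8: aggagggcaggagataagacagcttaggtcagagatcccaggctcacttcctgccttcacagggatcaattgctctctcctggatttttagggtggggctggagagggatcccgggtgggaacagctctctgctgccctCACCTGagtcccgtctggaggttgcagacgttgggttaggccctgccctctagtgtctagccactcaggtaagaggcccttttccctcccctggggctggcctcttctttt
Krt18: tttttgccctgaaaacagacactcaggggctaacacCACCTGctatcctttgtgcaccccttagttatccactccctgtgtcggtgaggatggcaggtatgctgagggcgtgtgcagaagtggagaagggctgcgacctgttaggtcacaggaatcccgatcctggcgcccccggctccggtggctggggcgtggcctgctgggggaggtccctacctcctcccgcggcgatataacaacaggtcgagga
Epcam: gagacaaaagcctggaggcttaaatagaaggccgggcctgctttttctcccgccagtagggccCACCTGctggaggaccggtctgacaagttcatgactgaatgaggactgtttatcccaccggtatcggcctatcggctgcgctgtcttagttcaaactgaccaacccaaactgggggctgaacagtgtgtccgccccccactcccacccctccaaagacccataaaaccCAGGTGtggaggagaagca
Spint1: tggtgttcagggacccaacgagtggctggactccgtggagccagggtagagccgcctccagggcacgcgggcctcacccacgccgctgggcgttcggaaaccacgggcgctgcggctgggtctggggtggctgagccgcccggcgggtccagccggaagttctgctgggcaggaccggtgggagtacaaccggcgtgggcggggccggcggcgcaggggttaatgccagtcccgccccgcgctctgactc
Spint2: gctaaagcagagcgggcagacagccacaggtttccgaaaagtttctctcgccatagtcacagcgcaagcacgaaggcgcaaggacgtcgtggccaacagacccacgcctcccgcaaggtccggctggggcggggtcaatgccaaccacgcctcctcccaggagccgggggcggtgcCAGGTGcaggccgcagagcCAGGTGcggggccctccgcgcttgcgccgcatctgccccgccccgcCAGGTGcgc
The E-box occurred once upstream of Krt8 and once upstream of Krt18, at 2 places upstream of Epcam and at 3 upstream of Spint2, and these letters were not in the Spint1 window.

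A probe counted as above background on an array when its detection p-value was under 0.05, and it was tested when that held on at least 2 of the 6 arrays. Of the 60 probes 27 were tested (45%), from 19 genes, against 39.9% of all probes and 44.2% of named probes. On all 6 arrays 17 probes of 13 genes were above background, where 31.5% of all probes were. A further 26 probes were above background on no array and 7 on 1 array, so 15 of the 34 genes were not tested, 12 of which had no probe above background on any array. Simple keratins, catenins and parts of all 3 junction types were thus measured, while P-cadherin, EpCAM and keratins 14 and 19 gave no signal above background. Of the 8 genes taken to mark epithelium, Krt8, Krt18 and Cldn3 were above background on all 6 arrays, Cdh1 on 4, Cldn7 on 2, Cldn4 on 1, and Epcam and Krt19 on none. For genes not above background the arrays give no more than an upper bound on the signal, and a probe that binds poorly gives the same reading as a silent gene.

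**Figure D1:**
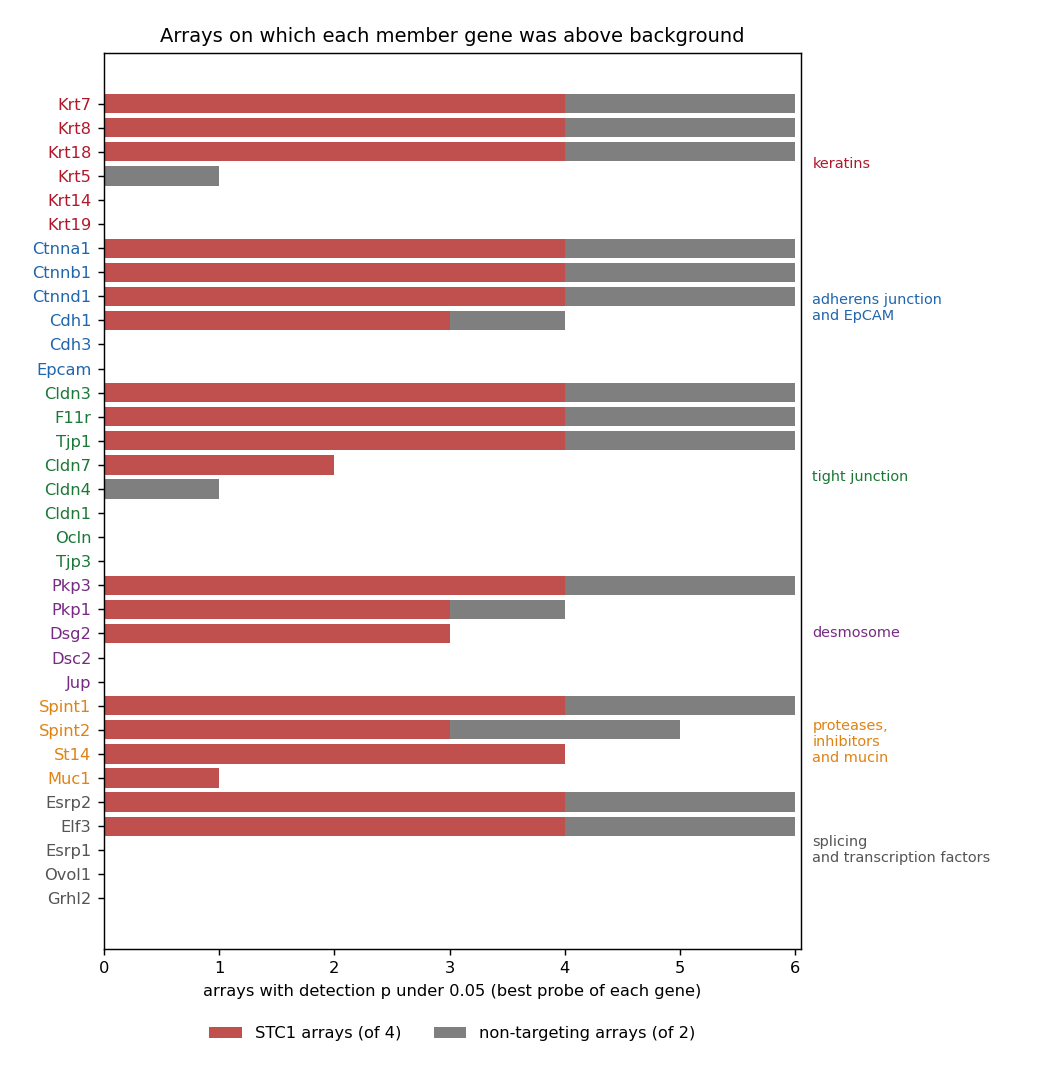
Number of arrays (x axis, 0 to 6) on which the best probe of each gene (y axis, grouped and coloured by subgroup) had a detection p under 0.05, with red for the 4 STC1 arrays and grey for the 2 non-targeting arrays. Krt7, Krt8, Krt18, the 3 catenins, Cldn3, F11r, Tjp1, Pkp3, Spint1, Esrp2 and Elf3 reach 6 arrays, St14 shows 4 STC1 arrays and no non-targeting array, and 12 genes have no bar.

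Mean raw intensity per array was between 228.3 and 310.6, and between 16252 and 17507 probes were above background on each array. Replicate arrays of a group had a Pearson's r between 0.9914 and 0.9939 over the 18076 tested probes, which are not independent replicates. Nothing in the labels says that replicate arrays stem from separate cultures. The p-values therefore reflect the spread between these arrays, which may be technical, and the number of arrays limits precision. Stc1 itself was at 7.68, 7.87, 8.05 and 7.74 (normalised log2 intensity) on the STC1 arrays, against 9.05 and 9.32 on the NT arrays, a log2 difference of -1.35 (adjusted p = 0.0025). Its second probe was above background on no array. One STC1 array given 18 µl, replicate 1, was the lowest of the 6 arrays for 14 of the 27 tested probes of the set (51.9%), against 16.9% of all tested probes, and on average the 27 probes lay 0.117 below their 6-array mean there.

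Between STC1 and NT arrays, 1 of the 27 probes passed limma's test with Benjamini-Hochberg adjustment over all 18076 probes. It was St14, which encodes matriptase, and it was higher with the STC1 hairpin. That probe met the detection filter through STC1 arrays alone, so it entered the test because it was high there. Its adjusted p was 0.0774 with no filter, and it was not tested with detection required on all 6 arrays. No probe of the set was lower at that threshold. In RNA from a whole culture, more cells that express a gene and more RNA per cell cannot be told apart. Over all tested probes 7.78% passed, 3.81% higher and 3.98% lower. At an unadjusted p under 0.05 limma counted 6 of the 27, against 26% of all tested probes. The 27 log2 differences lay between -0.42 and 0.57, with standard errors (SE) between 0.106 and 0.344 and a median SE of 0.129. The 95% interval stayed within a 2-fold change either way (1 on the log2 scale) for 26 of the 27 probes, against 95.8% of all tested probes. With 1 probe per gene the median log2 difference was -0.03 over the 19 genes, 9 of which were above 0, against 0.03 over all 9754 tested genes. Among the genes above 0, St14, Cldn7 and Dsg2 met the detection filter through STC1 arrays alone, so they were counted because they were high there. All 4 STC1 arrays lay above both NT arrays for 3 of the 27 probes and below both for 4, against 18.9% and 16.5% of all tested probes. The 3 higher probes were those of St14, Cldn7 and F11r, of which St14 and Cldn7 met the detection filter through STC1 arrays alone. Scaling the arrays by their median in place of quantile normalisation raised the median difference of all tested probes to 0.149, against 0.014, and that of the 19 genes to 0.14, which is -0.01 relative to the shift. Higher probes then made up 80.8% of all calls, against 48.9% with quantile normalisation.

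**Figure D2:**
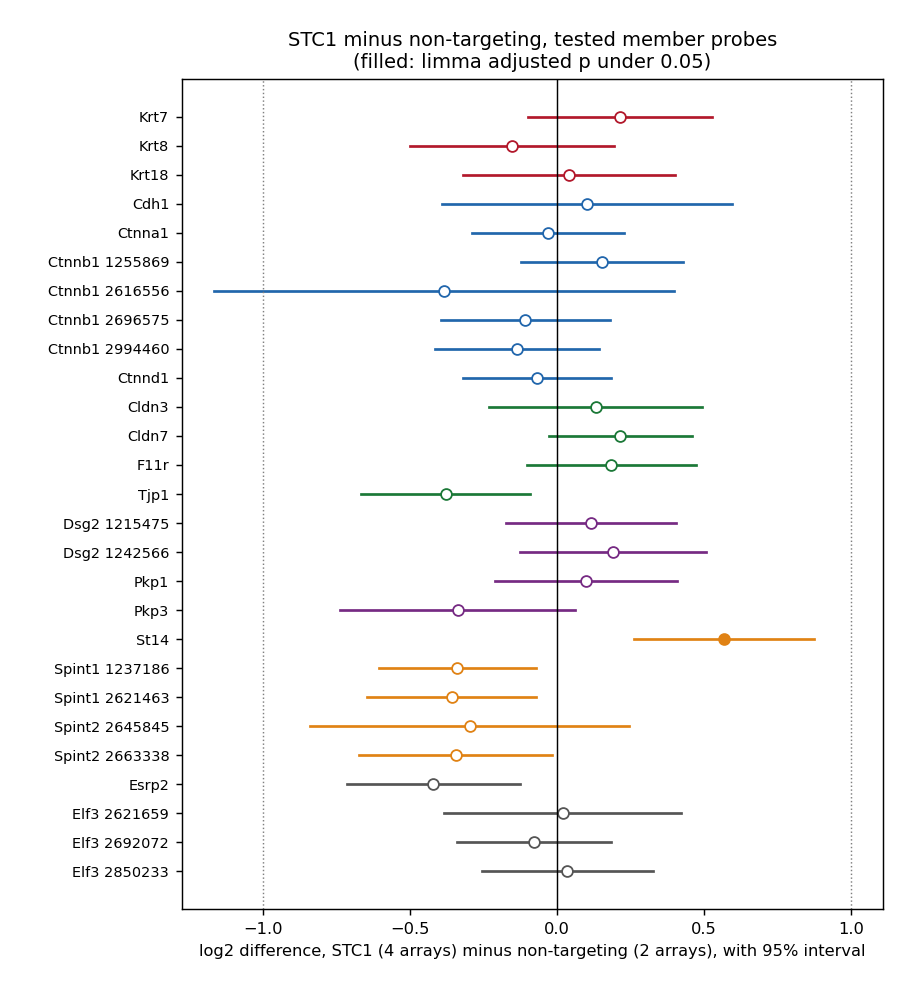
Log2 difference of STC1 (4 arrays) minus non-targeting (2 arrays) on the x axis for the 27 tested probes on the y axis, with 95% intervals from limma as bars and colours for subgroups. The filled point is St14, at 0.57, the probe that passed the adjusted threshold, and dotted lines mark 2-fold changes, within which every interval lies but that of a dim Ctnnb1 probe.

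The keratins of simple epithelium were bright on every array and none of the 3 tested genes passed the threshold. Krt8, which encodes the type II keratin that pairs with keratin 18, was at 12.64 and 12.56 with 6 µl of STC1 virus and 12.16 and 12.68 with 18 µl, against 12.65 and 12.68 on the NT arrays. Replicate 1 at 18 µl stood below the others and the groups overlapped. The log2 difference was -0.15 (SE 0.15, 95% interval -0.50 to 0.19, adjusted p = 0.567), and it turned to 0.03 with median scaling.

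Krt7, a type II keratin of glandular and ductal epithelium, was at 11.29 and 11.13 with 6 µl of STC1 virus and 10.99 and 11.21 with 18 µl, against 11.11 and 10.77 on the NT arrays. The highest and lowest values were on an STC1 and an NT array, with overlap between them. The difference was 0.21 (SE 0.14, -0.10 to 0.53, adjusted p = 0.365). Krt18, the type I partner of keratin 8, differed by 0.04 (SE 0.16, -0.32 to 0.40, adjusted p = 0.9), with a spread of 0.60 over the 6 arrays that came from STC1 18 µl replicate 1, at 10.85. Of the keratins not tested, basal Krt5 was above background on the NT array given 6 µl alone, and basal Krt14 and luminal Krt19 on no array. A second Krt8 probe was above background on no array.

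The catenins that tie cadherins to actin were above background on all arrays, and no probe of the 4 tested adherens junction genes passed. Ctnnb1, which encodes beta-catenin, was at 12.54 and 12.68 with 6 µl of STC1 virus and 12.35 and 12.61 with 18 µl on its brightest probe, against 12.63 and 12.73 on the NT arrays. The STC1 arrays reached into the NT range. Its difference was -0.14 (SE 0.12, -0.42 to 0.14, adjusted p = 0.525), and 3 further Ctnnb1 probes differed by -0.11, 0.15 and -0.39. The last of these had the widest interval of the set, -1.17 to 0.40 (SE 0.34), because STC1 6 µl replicate 1 stood at 4.93 while the other 5 arrays were between 6.11 and 6.59.

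Ctnnd1, which encodes p120-catenin, the catenin that stabilises cadherin at the membrane, was at 8.39 and 8.44 with 6 µl of STC1 virus and 8.25 and 8.40 with 18 µl, against 8.47 and 8.41 on the NT arrays. The values spanned 0.22 over the 6 arrays. The difference was -0.07 (SE 0.11, -0.32 to 0.19, adjusted p = 0.746), and 3 further probes were above background on no array. Ctnna1, which encodes alpha-catenin, differed by -0.03 (SE 0.11, -0.29 to 0.23, adjusted p = 0.893), with a range of 0.25 over the 6 arrays. With median scaling the differences of Ctnna1, Ctnnd1 and the brightest Ctnnb1 probe turned to 0.15, 0.11 and 0.03.

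Cdh1, which encodes E-cadherin, the adhesive receptor of the adherens junction, was read near background. Its better probe was at 4.84 and 4.63 with 6 µl of STC1 virus and 5.08 and 4.91 with 18 µl, against 4.33 and 5.20 on the NT arrays. It was above background on 3 STC1 arrays and on the NT array given 18 µl. The lowest and the highest value were both on NT arrays, so the STC1 arrays lay between them. The difference was 0.10 (SE 0.22, -0.39 to 0.60, adjusted p = 0.806), and it was -0.33 without NT replicate 1 and 0.54 without NT replicate 2. The second Cdh1 probe, the 4 probes of Cdh3 (P-cadherin) and the Epcam probe were above background on no array.

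Among tight junction genes, the scaffold Tjp1 had the lowest difference, and no probe of the 4 tested genes passed. Tjp1, which encodes ZO-1, was at 8.50 and 8.74 with 6 µl of STC1 virus and 8.07 and 8.29 with 18 µl, against 8.81 and 8.74 on the NT arrays. Both 18 µl arrays lay below all others, while an array at 6 µl reached the lower NT value. The difference was -0.38 (SE 0.13, -0.67 to -0.09, adjusted p = 0.102). By volume, 6 µl gave -0.16 (adjusted p = 0.56) and 18 µl gave -0.60 (adjusted p = 0.0588), and STC1 18 µl minus STC1 6 µl was -0.44 (adjusted p = 0.643).

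Cldn7, which encodes a claudin of many epithelia, was at 4.89 and 4.98 with 6 µl of STC1 virus and 4.66 and 4.62 with 18 µl, against 4.57 and 4.57 on the NT arrays. It was above background on both STC1 arrays at 6 µl and on no other array. The STC1 arrays all lay above the NT arrays by a small margin, with a difference of 0.22 (SE 0.11, -0.03 to 0.46, adjusted p = 0.241). F11r, which encodes the adhesion molecule JAM-A, also lay above both NT arrays on all 4 STC1 arrays, with a difference of 0.19 (SE 0.13, adjusted p = 0.395) and a range of 0.34. Cldn3, another sealing claudin, differed by 0.13 (SE 0.16, -0.23 to 0.49, adjusted p = 0.644), and its 6 arrays lay between 8.71 and 9.34. Cldn4 was above background on the NT array given 18 µl alone, and Cldn1, Ocln (occludin) and Tjp3 (ZO-3) on no array.

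Of the desmosome genes 3 were tested and none passed. Pkp3, which encodes plakophilin 3, a plaque protein, was at 6.53 and 6.61 with 6 µl of STC1 virus and 5.84 and 6.48 with 18 µl, against 6.59 and 6.82 on the NT arrays. Replicate 1 at 18 µl was the lowest and an array at 6 µl lay inside the NT range. The difference was -0.34 (SE 0.18, -0.74 to 0.06, adjusted p = 0.267), and with 1 array left out it lay between -0.496 (without STC1 18 µl replicate 2) and -0.179 (without STC1 18 µl replicate 1).

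Dsg2, which encodes the desmosomal cadherin desmoglein 2, was at 4.87 and 4.79 with 6 µl of STC1 virus and 4.62 and 5.02 with 18 µl, against 4.56 and 4.71 on the NT arrays. This probe was above background on 3 STC1 arrays and no NT array, and the groups overlapped. The difference was 0.19 (SE 0.14, -0.13 to 0.51, adjusted p = 0.43), and a second tested probe differed by 0.12. Of the untested Dsg2 probes 1 was above background on the NT array given 18 µl alone and 1 on no array. Pkp1, which encodes plakophilin 1, differed by 0.10 (SE 0.14, adjusted p = 0.687) with a range of 0.39. Dsc2, for desmocollin 2, and Jup, for plakoglobin, were above background on no array.

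The protease and inhibitor genes included the 1 probe that passed. St14, the matriptase gene, was at 5.13 and 4.95 with 6 µl of STC1 virus and 4.96 and 5.17 with 18 µl, against 4.64 and 4.33 on the NT arrays. It was above background on all 4 STC1 arrays and on neither NT array, and every STC1 array lay above both NT arrays. In raw intensity it read between 63.4 and 80.2 on the STC1 arrays, against 49.5 and 56.0 on the NT arrays. The log2 difference was 0.57 (SE 0.13, 0.26 to 0.88, limma adjusted p = 0.0399 over the probes that met the filter, n = 4 against 2), and 0.33 both with no background correction and with the authors' deposited log2 values. Because it was not above background with the NT hairpin, the fold is a bound of at least 1.23-fold higher, taken from the mean of the STC1 arrays over the lowest signal above background on each NT array or the probe's own, whichever was greater. By volume, 6 µl gave 0.56 (adjusted p = 0.0823) and 18 µl gave 0.58 (adjusted p = 0.0741). The call was lost in 5 of the 6 fits that each left out 1 array, all but that without STC1 18 µl replicate 1 (adjusted p = 0.0447), with differences between 0.42 and 0.72. A further St14 probe was above background on 1 array and another on none, so a single dim probe carries the result.

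The genes of the inhibitors that act on matriptase read lower on several arrays without passing. Spint1, which encodes HAI-1, had a bright probe at 11.56 and 11.57 with 6 µl of STC1 virus and 11.25 and 11.46 with 18 µl, against 11.87 and 11.73 on the NT arrays. Its other probe was at 7.11 and 6.95 with 6 µl and 6.90 and 7.19 with 18 µl, against 7.42 and 7.37 on the NT arrays. On both probes all 4 STC1 arrays lay below both NT arrays after normalisation. Raw intensities overlapped on both, through STC1 6 µl replicate 1, whose mean raw intensity over all probes was the highest, 310.6. That array read 3720 on the bright probe, against 3199 and 3262 on the NT arrays. On the other probe it read 208.8, against 182.4 and 191.5. The normalised log2 differences were -0.34 (SE 0.12, -0.61 to -0.07, adjusted p = 0.111) and -0.36 (SE 0.13, -0.65 to -0.07, adjusted p = 0.118).

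Spint2, which encodes HAI-2, had a probe at 5.55 and 5.62 with 6 µl of STC1 virus and 4.74 and 5.74 with 18 µl, against 5.82 and 5.59 on the NT arrays. The value of 4.74, on replicate 1 at 18 µl, was not above background, and without that array the difference was -0.05, against -0.30 with it (SE 0.24, adjusted p = 0.474). The other Spint2 probe was at 4.94 and 4.67 with 6 µl and 4.96 and 4.66 with 18 µl, against 5.28 and 5.03 on the NT arrays. There the groups did not overlap after normalisation, with a difference of -0.34 (SE 0.14, adjusted p = 0.174). That probe was dim and not above background on STC1 18 µl replicate 2. Its raw intensities overlapped, with 74.3 on STC1 6 µl replicate 1, against 69.2 and 66.0 on the NT arrays. Muc1, a membrane mucin gene, had 4 probes, each above background on at most 1 array.

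**Figure D3:**
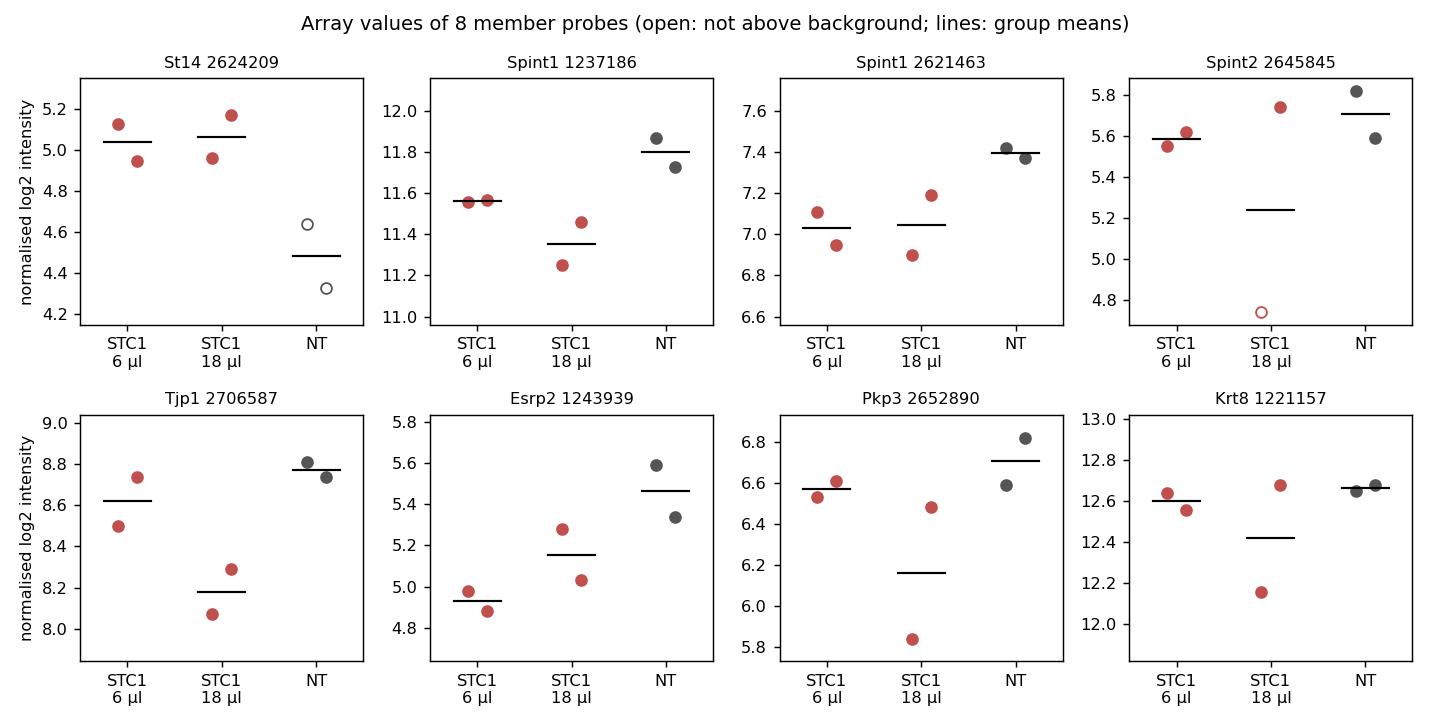
Normalised log2 intensity (y axis, a different range in each panel) of 8 probes on the 2 STC1 arrays at 6 µl, the 2 STC1 arrays at 18 µl and the 2 non-targeting arrays (NT), with open points for arrays not above background and lines for group means. St14 lies between 4.95 and 5.17 on STC1 arrays, against 4.64 and 4.33 on NT arrays, while both Spint1 probes and Esrp2 lie below the NT arrays on all STC1 arrays, and Tjp1 is lowest at 18 µl.

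Of the splicing and transcription factor genes 2 were tested and none passed. Esrp2, which encodes an RNA-binding protein that directs epithelial splicing, was at 4.98 and 4.88 with 6 µl of STC1 virus and 5.28 and 5.03 with 18 µl, against 5.59 and 5.34 on the NT arrays. It was above background on all 6 arrays and all STC1 arrays lay below both NT arrays. The probe was dim, and before normalisation its raw intensities overlapped, between 65.8 and 75.3 on STC1 arrays, against 77.3 and 73.2 on NT arrays. The difference was -0.42 (SE 0.13, -0.72 to -0.13, adjusted p = 0.0821), where 6 µl gave -0.54 (adjusted p = 0.0814) and 18 µl gave -0.31 (adjusted p = 0.274). A second Esrp2 probe was above background on 1 array.

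Elf3, an ETS-family transcription factor gene of epithelia, was at 5.23 and 5.24 with 6 µl of STC1 virus and 5.13 and 5.17 with 18 µl on its brightest probe, against 5.38 and 5.16 on the NT arrays. The groups overlapped and the difference was -0.08 (SE 0.12, adjusted p = 0.716), which turned to 0.03 with median scaling. Other Elf3 probes differed by 0.02 and 0.04. Esrp1, the relative of Esrp2, and the transcription factor genes Ovol1 and Grhl2 were above background on no array.

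**Figure D4:**
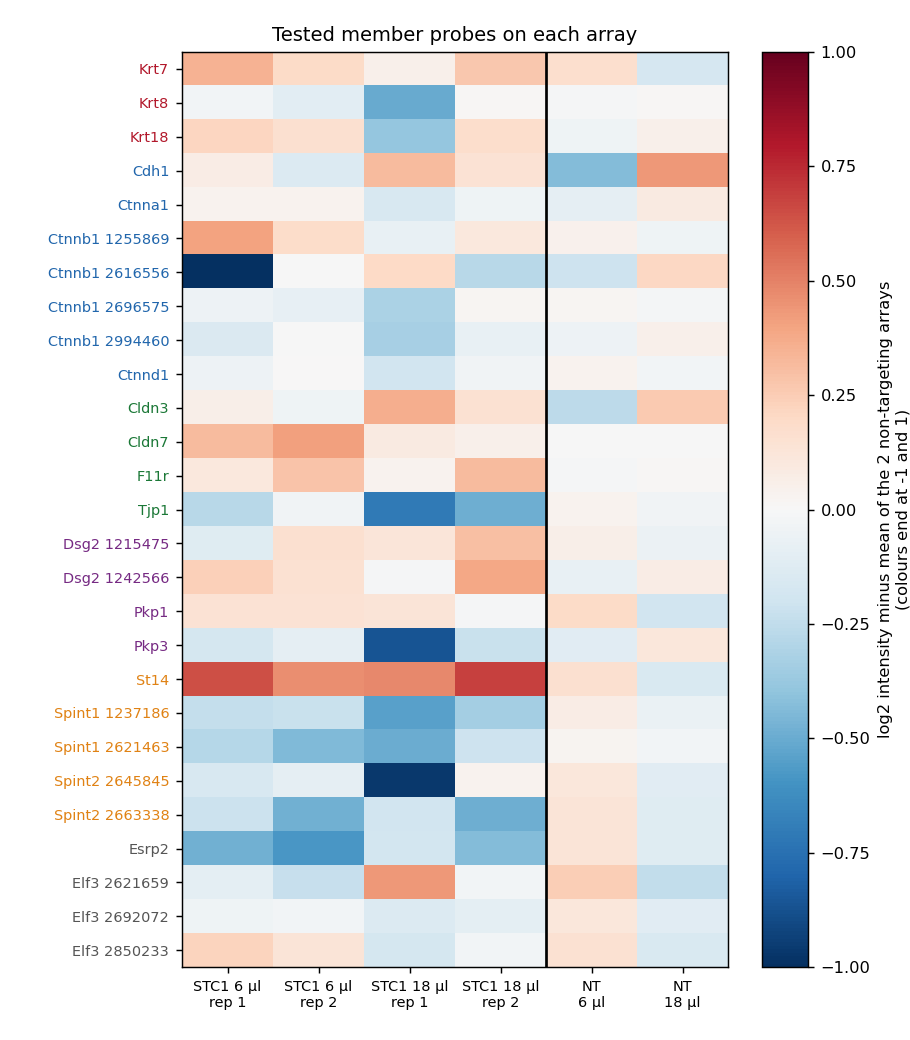
Normalised log2 intensity of the 27 tested probes (y axis, coloured by subgroup) on each of the 6 arrays (x axis), as the difference from the mean of both non-targeting arrays, in colours that end at -1 and 1. St14 is red on all 4 STC1 arrays, Spint1 and Esrp2 are blue on all 4, and STC1 18 µl replicate 1 has the lowest value of the row for 14 of the 27 probes.

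The 6 subgroups had median log2 differences, with 1 probe per gene, of 0.04 for keratins (3 genes), -0.05 for adherens junction genes (4 genes), 0.16 for tight junction genes (4 genes), 0.10 for desmosome genes (3 genes), -0.30 for protease and inhibitor genes (3 genes) and -0.25 for factors (2 genes). The median over all tested genes was 0.03. In these subgroups Cldn7 (tight junction), Dsg2 (desmosome) and St14 (protease) met the detection filter through STC1 arrays alone, which favours higher medians there. Beside St14 and Tjp1, the probes under an unadjusted p of 0.05 in STC1 minus NT were both Spint1 probes, the dimmer Spint2 probe and Esrp2.

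Virus volume made no difference that passed the adjusted threshold in the set. At 6 µl none of the 27 probes passed against NT by limma and 4 had an unadjusted p under 0.05. Of all tested probes 3.82% passed and 22.9% were under that p. Those 4 included St14 and Cldn7, which met the detection filter through STC1 arrays alone. At 18 µl none passed and 5, St14 included, were under the unadjusted p, while 3.97% of all passed and 21.6% were under that p. Both comparisons use the same NT arrays. For STC1 18 µl minus STC1 6 µl no probe of the set passed, nor did any of all tested probes (0%). An unadjusted limma p under 0.05 was reached by Tjp1 (-0.44) and Cldn7 (-0.30), 2 of 27, against 6.8% of all. Cldn7 met the detection filter through the STC1 arrays at 6 µl alone, so it entered the test because it was high there. The interaction of hairpin and volume (the STC1 effect at 18 µl minus that at 6 µl), which rests on 1 NT array per volume, passed for no probe (0%). An unadjusted limma p under 0.05 was reached by Cdh1 (-0.61) and an Elf3 probe (0.86), 2 of 27, against 4.28% of all.

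Further genes of the same pathways are given by list, with 1 probe per gene. Over all 9754 tested genes 8.17% passed, 4.45% higher and 3.72% lower. Of 4 tested further keratins none passed, and Krt10, a keratin of differentiated epidermis, differed by 0.44 (adjusted p = 0.0732) and Krt15 by 0.19. Krt15 met the detection filter through STC1 arrays alone. Of 11 further adherens junction and nectin genes none passed, with Afdn, for the nectin-binding protein afadin, at 0.30 and Actn4, an alpha-actinin, at -0.28. Of 16 further tight junction genes 1 rose and none fell. It was Cxadr, for the coxsackievirus and adenovirus receptor, a junctional adhesion protein (0.46, SE 0.12, 1.38-fold higher, adjusted p = 0.0459), whose other probes differed by 0.24 and -0.06. Of 7 further desmosome and hemidesmosome genes none rose and 1 fell, Itga6, the integrin alpha 6 subunit of hemidesmosomes (-0.51, SE 0.13, 1.42-fold lower, adjusted p = 0.0478), with other probes at -0.24 and -0.01. Of 7 further epithelial protease and inhibitor genes none passed, and the kallikrein genes Klk10 and Klk8 differed by -0.30 and -0.21. Of 10 further epithelial factors none rose and 1 fell, Tfap2c, for the transcription factor AP-2 gamma (-1.12, SE 0.21, 2.18-fold lower, adjusted p = 0.0209), with its other probe at -0.18. The Tfap2c probe that fell was dim, at raw intensities between 56.8 and 74.1 on STC1 arrays, against 88.55 and 110.7 on NT arrays. On STC1 18 µl replicate 2 it was not above background. In the same list Klf4, a Kruppel-like factor gene, had a dimmer probe that passed (0.60, adjusted p = 0.0268), while the probe that stood for the gene did not (0.40, adjusted p = 0.128) and another differed by -0.13, and it was named after its values were seen. Leaving out single arrays, Cxadr passed in 0 of 6 fits, Itga6 in 1 and Tfap2c in 2, the direction being the same in all. With no detection filter none of these 3 passed (adjusted p = 0.0573, 0.0799 and 0.0771). Itga6 did not pass with median scaling either (-0.34, adjusted p = 0.169).

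Markers of other cell states and cell types were set beside these values. Of 9 tested factors linked to epithelial-mesenchymal transition (EMT) 1 rose and none fell. It was Snai3, a Snail-family gene (0.48, SE 0.12, 1.39-fold higher, adjusted p = 0.0461). Its difference lay between 0.42 and 0.53 with 1 array left out. The call was lost with no detection filter (limma adjusted p = 0.0648) and with a replicate block (0.0641). It was also lost, at a difference of 0.26, with no background correction (0.0819) and with the authors' log2 values (0.0814). The largest difference of the list was in Tcf3, which encodes the E-box-binding protein E2A. All 4 STC1 arrays lay below both NT arrays on both Tcf3 probes, with -0.71 (SE 0.19, adjusted p = 0.0533) on the probe that stood for the gene and -0.70 (SE 0.16, adjusted p = 0.0346) on the other, which passed. Tcf3 and the following genes were named after their values were seen, the others as the best-known repressors of Cdh1. Snai1 differed by -0.06, Twist1 by -0.07, Zeb1 by -0.02 and Zeb2 by 0.08, none of which passed, and Snai2 and Twist2 were above background on no array. The summed normalised intensity of the EMT list was between 4505 and 5064 on STC1 arrays, against 4746 and 4949 on NT arrays.

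Of 9 tested mesenchymal genes 3 rose, 1 fell and 5 did not pass. Col6a1, a collagen VI chain, was 1.86-fold higher (0.89, SE 0.12, adjusted p = 0.0064), and Fn1, fibronectin, 1.81-fold higher (0.86, SE 0.21, adjusted p = 0.0442). Pdgfrb, a growth factor receptor of mesenchymal cells, was at least 1.48-fold higher (adjusted p = 0.0201) and not above background on either NT array, so it too entered the test through STC1 arrays alone. Its adjusted p was 0.0617 with no filter, where Fn1 did not pass either (0.135). Col5a1, a collagen V chain, was 1.53-fold lower (-0.61, SE 0.11, adjusted p = 0.017), and with median scaling it did not pass (-0.41, adjusted p = 0.0902). Leaving out 1 array at a time, Col6a1 passed in 5 of 6 fits, Pdgfrb and Col5a1 in 2 each and Fn1 in 1. The summed intensity of the mesenchymal list was between 15620 and 16270 on STC1 arrays, against 15040 and 16500 on NT arrays.

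Of 2 tested myoepithelial genes 1 rose, Mylk, for myosin light chain kinase, at 1.81-fold (0.85, SE 0.11, adjusted p = 0.00489), and all 3 of its probes were higher. The summed intensity of that list was between 1084 and 1179 on STC1 arrays, against 799.8 and 800.1 on NT arrays, while Acta2, smooth muscle actin, the other tested gene, differed by -0.05 and -0.01 on its probes. Of the list's 9 genes 5 were above background on no array, namely Cnn1, Myh11, Myl9, Oxtr and Tagln. The sum holds the Mylk probes and much background, so it cannot show a rise shared by the list. None of 4 tested luminal mammary genes passed, with Gata3, a luminal transcription factor gene, at -0.35 (adjusted p = 0.093) and Foxa1 at 0.39, not above background on NT arrays.

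Fibroblast markers other than Pdgfra and Pdgfrb, 7 of 9 and among them Col1a1, Col3a1 and Dcn, were above background on no array, and the list's sum was between 1222 and 1725 on STC1 arrays, against 1176 and 1340 on NT arrays. That sum holds Pdgfra, Pdgfrb and background, so it cannot compare fibroblast RNA between the groups. With 1 probe per gene Pdgfra differed by 0.35 and did not pass. Of 7 leukocyte genes 5 were above background on no array, Ptprc included, and the sums were between 346.6 and 362.2 on STC1 arrays, against 349 and 349.3 on NT arrays. Of 7 endothelial genes 6, Pecam1 included, were above background on no array, with sums between 244.5 and 252.7 on STC1 arrays, against 248.1 and 256.3 on NT arrays. Most of these leukocyte and endothelial genes read background, and each value holds the offset of 16 added in normalisation. Their sums are therefore mostly background and cannot compare leukocyte or endothelial RNA between the groups. The tested leukocyte genes Cd3e and Csf1r differed by 0.20 and 0.18 and the endothelial gene Kdr by 0.11, none passing. Cd3e and Csf1r met the detection filter through STC1 arrays alone, so they entered the test because they were high there. The part of the myoepithelial and mesenchymal genes in the values of the epithelial set was not tested.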

How the data were processed

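Expression was measured in 6 samples of transduced 4T1ch9 cells, in 3 groups of 2 arrays taken from the labels. The deposited table of unnormalised values gives, per the file headers, a linear bead intensity and its detection p-value on every array. The deposited processed table holds log2 values, from which quantile normalisation of the logged raw values differed by a median of 0.00015. The scanner software was not given in the sources used here, and no chip or scan date was at hand, so no batch could be entered.

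With neqc (limma 3.58.1, R 4.3.3) intensities were background-corrected against the 936 negative controls that the detection values imply, given an offset of 16, quantile-normalised and logged. The offset draws dim values together, background correction spreads them apart, and quantile normalisation removes a shift shared by most transcripts. Gene names came from the platform annotation, which listed 34903 probes, 34885 with 1 symbol and 18 with several, updated through 34807 matched identifiers, and 10378 probes were unnamed.

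limma's lmFit and eBayes were run on 18076 probes with 1 mean per group (3 residual and 5.66 prior degrees of freedom), and a model with a mean per virus and volume (2 residual degrees of freedom) gave the volume dependence. Tests were two-sided, adjusted by Benjamini-Hochberg over all probes tested, and changed, rose and fell mean an adjusted p under 0.05. The probe with the highest mean stood for a gene. The procedure was tested on simulated data. No arrays were identical. Every gene of the set is named, with array values for the genes that passed and the 2 per subgroup with the smallest p, and array values for others were added where 1 array moved them. From the 13 other lists the genes that passed are named, up to 4, or otherwise the 2 with the smallest p. The genes and lists were chosen with earlier results of these data known. Alternatives were scaling, background correction, the deposited log2 values, the detection filter, each array left out and a replicate block.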

Additional observations from a re-analysis of the deposited data

Results flagged for a closer look

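Among the 4 STC1 arrays of each of the 27 tested probes, 2 probes had an array far from the others. Krt18 on STC1 18 µl replicate 1 was at 10.85, while the other 3 STC1 arrays were between 11.40 and 11.45, a gap of 0.927 of the range. Pkp1 on STC1 18 µl replicate 2 was at 4.65, while the others were between 4.79 and 4.81 (0.845 of the range). Both gaps passed the 95% critical value of Dixon's test for 4 samples, which chance passes in about 1 in 20 groups.

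A signal above background on 1 STC1 array and on no NT array was read by 3 probes that were not tested. A further St14 probe had a raw intensity of 72.0 on STC1 6 µl replicate 1, against 56.1 and 56.3 on the NT arrays. A Muc1 probe had 60.1 on STC1 18 µl replicate 2, against 42.2 and 50.4 on the NT arrays. The second Esrp2 probe had 69.2 on STC1 6 µl replicate 2, against 53.2 and 54.3 on the NT arrays. The reverse, above background on 1 NT array and on no STC1 array, was read by 4 untested probes. These were Krt5 (62.1 on the NT array given 6 µl), a further Muc1 probe (59.5 on that array), Cldn4 (61.3 on the NT array given 18 µl) and a Dsg2 probe (63.7 on that array), with STC1 arrays between 44.3 and 62.9.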

How the results depend on the processing

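Probes that changed between STC1 and NT numbered 1407, and 2528 with median scaling (80.8% of them higher, against 48.9%), 2288 with no background correction, 2288 with the authors' log2 values and 787 with no detection filter. Leaving out 1 array gave 207 to 1479 (NT replicate 1 gone 207, NT replicate 2 gone 220, STC1 6 µl replicate 1 gone 588, its replicate 2 gone 320, STC1 18 µl replicate 2 gone 686). In the set of 27 probes 1 changed. With no background correction or the authors' values 3 did (St14, Tjp1 and the brighter Spint1 probe), with no filter 0, and with detection required on all 6 arrays 0, as St14 was then not tested. Leaving out 1 array gave 0 to 1. St14 had adjusted p-values up to 0.229 (without NT replicate 2), with 0.0774 without a filter. At 6 µl median scaling called 3 probes (St14 0.66, a Ctnnb1 probe 0.56, Krt7 0.54). At 18 µl 2 were called with no background correction or the authors' values (Tjp1, Spint1), and 1, Tjp1, with detection on all 6 arrays (adjusted p = 0.0391) or at a detection p under 0.01 (0.049). The set's median was 0.14 with median scaling and between -0.124 and -0.003 with 1 array left out. Median scaling turned Krt8 (0.028), Ctnna1 (0.15), Ctnnd1 (0.11), Ctnnb1 probes (0.086 and 0.033) and an Elf3 probe (0.025), and at 6 µl Tjp1 (0.12), Pkp3 (0.11) and Spint1 (0.051). With 1 array left out the sign turned within these ranges: Cdh1 -0.335 to 0.539, Cldn3 -0.13 to 0.394, Ctnna1 -0.124 to 0.062, Krt18 -0.101 to 0.181, Pkp1 -0.098 to 0.296, Kdr -0.098 to 0.308, and Elf3 probes -0.223 to 0.264, -0.191 to 0.037 and -0.118 to 0.189. Deviations of same-numbered arrays correlated at 0.005, -0.021 and -0.113. As the NT arrays also differed in virus volume, these values cannot show whether the numbers pair arrays. A replicate block called 1295 probes and 1 of the set (St14, adjusted p = 0.0483). The crossed numbering, chosen after seeing the data, called 1105 and 0. The cause of these changes was not tested, and dim probes near background limit St14, Cdh1, Cldn7, Dsg2, Spint2 and Esrp2.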
